A study of Homo sapiens with 32 samples.

Results

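The genes described here are the small nucleolar RNA (snoRNA) and small Cajal body RNA (scaRNA) genes, 1363 of the 64449 genes that GENCODE places on the nuclear chromosomes of GRCh37 (hg19). Members were all genes of type snoRNA, together with the SCARNA2 locus at chr1:109642815-109643241 on the plus strand, which that annotation lists as a long non-coding RNA. Another 96 snoRNA genes that lie inside GAS5 or SNHG genes were left out. By name, 306 members were SNORD genes, 388 SNORA genes and 47 SCARNA genes, and 622 carried other names, mostly copies called snoU13 (464), U3 (81) or U8 (26). The measurement was iCLIP, an immunoprecipitation of UV-crosslinked protein and RNA read out base by base, in which each tag is a cDNA whose end marks the base where a protein was crosslinked. FLAG-tagged Alyref, Chtop or Nxf1 was pulled down with anti-FLAG antibody from FlpIn-293 cells (labelled HEK293T), a human embryonic kidney line that carries an inducible transgene at a recombination site, and a line with the empty FLAG construct served as Control. Expression was induced for 48 h by tetracycline, with 10 ng/mL in the Alyref and Chtop lines but 5 ng/mL in the Nxf1 line, and the sources used here do not give a dose for the Control. Each group had 3 libraries, named by their replicate number, and no label says whether they came from separate cultures, so that the tests measure only the spread between these libraries.

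SnoRNAs guide the chemical modification of other RNAs. Box C/D snoRNAs (SNORD) carry fibrillarin and guide 2′-O-methylation of ribosomal RNA, box H/ACA snoRNAs (SNORA) carry dyskerin and guide pseudouridylation, and scaRNAs act on spliceosomal RNAs in Cajal bodies. Most human snoRNAs are cut out of the introns of host genes, many of which encode ribosomal proteins or translation factors, and their ends are set by exonucleases that stop at the bound proteins. A few, such as U3 (SNORD3), U8 (SNORD118) and SNORD13, are transcribed from promoters of their own and receive a cap. Alyref and Chtop belong to TREX, which links transcription and splicing to mRNA export, and Nxf1 is the export receptor, whereas mature snoRNAs stay in the nucleus.

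Below are the sequences of 4 of the 6 members with the most tags (the others being SNORD118 and SNORD13), shown because they let the positions of the tags be seen on the RNA, read from GRCh37 in the 5′ to 3′ direction of the RNA. Capitals mark the bases that held 3 or more tags over the 12 libraries. SNORD3A is annotated over 699 nt and its first 190 nt, chr17:19091329-19091518 on the plus strand, held all of its 172 tags. Of the 427 nt of SCARNA2, the first 300 nt are shown (chr1:109642815-109643114, plus strand), with 108 of its 134 tags. SNORD97 lies at chr11:10823014-10823155 on the minus strand in an intron of EIF4G2, and SNORA48 at chr17:7478031-7478165 on the plus strand in an intron of EIF4A1.
SNORD3A: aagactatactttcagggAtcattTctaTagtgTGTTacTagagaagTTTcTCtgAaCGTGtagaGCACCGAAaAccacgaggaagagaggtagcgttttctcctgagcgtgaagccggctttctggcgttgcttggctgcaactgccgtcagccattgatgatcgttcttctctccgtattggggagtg
SCARNA2: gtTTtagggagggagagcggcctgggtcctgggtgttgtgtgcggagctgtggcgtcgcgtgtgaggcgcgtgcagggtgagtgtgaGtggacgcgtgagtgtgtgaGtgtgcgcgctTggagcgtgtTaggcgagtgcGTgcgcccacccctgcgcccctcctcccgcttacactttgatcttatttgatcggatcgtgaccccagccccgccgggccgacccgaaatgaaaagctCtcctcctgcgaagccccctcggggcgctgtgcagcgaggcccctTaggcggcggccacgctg
SNORD97: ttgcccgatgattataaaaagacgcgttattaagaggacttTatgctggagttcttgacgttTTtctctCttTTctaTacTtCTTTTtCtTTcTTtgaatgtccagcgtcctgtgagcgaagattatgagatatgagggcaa
SNORA48: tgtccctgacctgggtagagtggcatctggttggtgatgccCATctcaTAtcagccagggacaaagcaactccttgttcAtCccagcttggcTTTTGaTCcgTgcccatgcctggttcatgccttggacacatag

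The names were checked against the box letters in the sequences. The box C letters TGATGA stood within the first 25 bases of 51.0% of SNORD, 0.258% of SNORA, 17.0% of SCARNA and 4.66% of other members, and the box D letters CTGA within the last 25 bases of 76.8%, 10.1%, 27.7% and 60.0%. The letters ACA, which close box H/ACA RNAs, stood within the last 10 bases of 72.9% of SNORA, 63.8% of SCARNA, 8.82% of SNORD and 30.4% of other members. All were searched on the RNA strand alone and as exact letters, so that a degenerate box is not counted. Members with a tag held their class letters more often than members without one, with CTGA in 93.2% of 117 against 66.7% of 189 SNORD members and ACA in 90.7% of 108 against 66.1% of 280 SNORA members.

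Tags fell on few of the members. Of the 1363 members, 301 had at least 1 tag in the 12 libraries and 143 had 10 or more, and the 1062 without a tag were spread over all classes (189 SNORD, 280 SNORA, 31 SCARNA and 562 other). The members held 5317 tags in all, 3054 on SNORD, 1691 on SNORA, 341 on SCARNA and 231 on other members. SNORD118 alone held 6.92% of these tags, the 12 most tagged members 29.5% and the 50 most tagged 58.3%. Totals per library lay between 81307 and 631704 tags (Alyref), 47052 and 538844 (Chtop), 8134 and 179346 (Nxf1) and 7017 and 46628 (Control). Levels are given as CPM, the tags of a gene per 1000000 tags of its library. With 3 tags as the limit that a count of 0 allows, this limit was 4.75 CPM in Alyref 2, the deepest library, and 428 CPM in Control 1, the shallowest.

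The first question was whether the export factors were crosslinked to these RNAs above the Control. They took a smaller share of the tags of every factor than of the Control. The share on all members was 0.177%, 0.208% and 0.209% in Alyref 1, 2 and 3. It was 0.128%, 0.238% and 0.0279% in the Chtop libraries and 0.258%, 0.265% and 0.154% in the Nxf1 libraries. The Control libraries held 0.442%, 0.725% and 0.400%, so that each of the 9 factor libraries lay below each Control library.

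The mean Alyref share was 0.198% ± 0.0183 (SD, n = 3), the Chtop share 0.131% ± 0.105, the Nxf1 share 0.226% ± 0.0620 and the Control share 0.522% ± 0.177. The Control mean was 2.64-fold, 3.98-fold and 2.31-fold that of Alyref, Chtop and Nxf1. A two-sided exact permutation test of 3 against 3 libraries cannot go below p = 0.1, which each of these comparisons reached (adjusted over 15 comparisons 0.15). Shares are relative to a library's own total, and a lower share can mean fewer tags on snoRNAs or more on other RNAs, which cannot be told apart here. The Control libraries were shallow, though Nxf1 1 had fewer tags than Control 2 and Control 3. Chtop 1, with 47052 tags, had 0.128% (95% Wilson interval 0.0991 to 0.164). Control 2, with 46628 tags, had 0.725% (0.652 to 0.806), which is 5.68-fold the share of Chtop 1. Control 3, with 36978 tags, had 0.400% (0.341 to 0.470). The part of depth in these shares was not tested. These intervals cover counting error only. Nxf1 1 with 8134 tags (0.169 to 0.394) and Control 1 with 7017 tags (0.311 to 0.626) overlapped in their intervals.

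The box C/D and the box H/ACA class each took smaller shares in the factor libraries. SNORD genes took 0.117% ± 0.0143 (SD, n = 3) of Alyref tags, 0.0742% ± 0.0601 of Chtop tags, 0.118% ± 0.0417 of Nxf1 tags and 0.320% ± 0.111 of Control tags. SNORA genes took 0.0555% ± 0.0119 (SD, n = 3), 0.0481% ± 0.0400, 0.0609% ± 0.0132 and 0.169% ± 0.0714 in the same order. In both classes no factor library reached the lowest Control library (exact permutation p = 0.1 for each of the 6 comparisons, adjusted 0.15). None of the shares of SNORD or SNORA differed between one factor and the other two beyond the spread of libraries (3 against 6 libraries, lowest exact permutation p = 0.202, adjusted 0.506).

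The scaRNAs did not share this pattern for Alyref and Nxf1. They took 0.0209%, 0.0128% and 0.00945% of the tags in Alyref 1, 2 and 3, and 0.0123%, 0.0579% and 0.0162% in Nxf1 1, 2 and 3. In the Control libraries they took 0.0143%, 0.0343% and 0.0162%. Both factors overlapped the Control (exact permutation p = 0.4 and p = 0.9, adjusted 0.462 and 0.9). Only Chtop, at 0.00638%, 0.0100% and 0.00163%, was under each of the Control libraries (p = 0.1 by the exact permutation test, adjusted 0.15). The mean of Nxf1, 0.0288% ± 0.0253 (SD, n = 3), lay above that of the Control, 0.0216% ± 0.0111, and without Nxf1 2 the difference turned to -0.00737 percentage points. Among the tags on all members, scaRNAs made up 4.76%, 21.8% and 10.5% in the Nxf1 libraries against 3.23%, 4.73% and 4.05% in the Control, 11.8%, 6.15% and 4.52% in Alyref and 5.00%, 4.21% and 5.83% in Chtop. A single gene, SCARNA2, carried much of this. Without it, a choice made after seeing the data, the Nxf1 shares were 0%, 10.5% and 5.34% and the Control shares 0%, 3.30% and 3.40%, while Alyref had 7.30%, 4.48% and 3.06%.

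**Figure D1:**
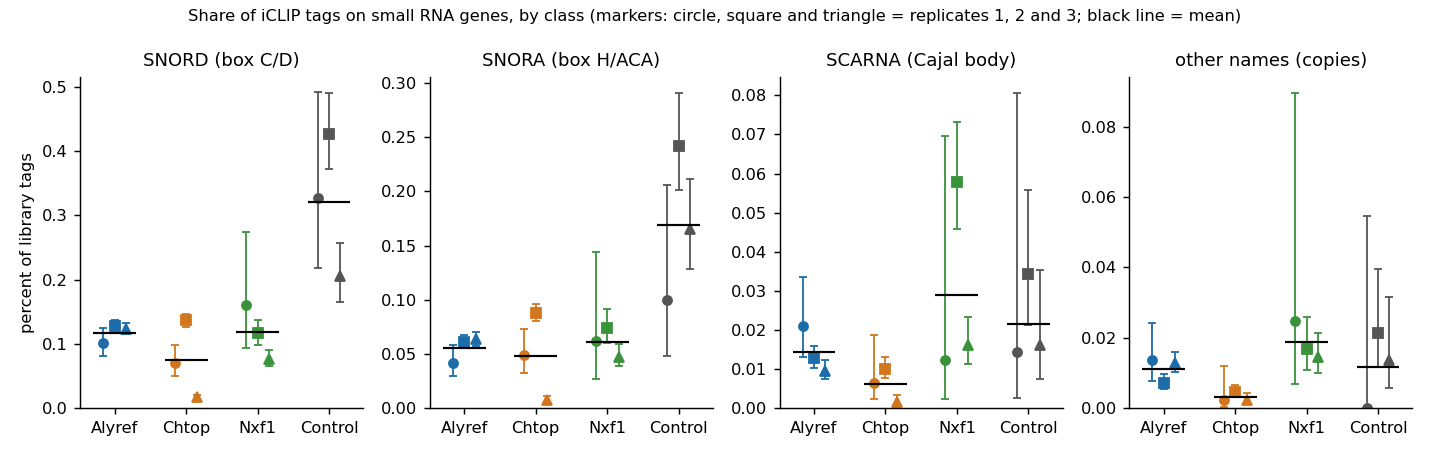
Percent of each library's tags on SNORD, SNORA, SCARNA and other members (y axis, a separate linear scale in each panel) for the 3 libraries of each group, with 95% Wilson intervals for counting error and the group mean as a line. For SNORD and SNORA all factor points lie below the lowest Control point, and for SCARNA the square of Nxf1 2 at 0.0579% is the highest of the 12.

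Chtop 3 stood apart. Its share of 0.0279% was 8.53-fold below that of Chtop 2, although both were deep (429573 and 538844 tags), and its SNORD, SNORA and SCARNA shares were each the lowest of the 12 libraries. Small nuclear RNA genes, another class of short nuclear RNA, took 0.143% of tags in Chtop 3, which was above Chtop 2 (0.105%) but below Chtop 1 (0.729%) and all other libraries (0.153% to 1.19%). Without Chtop 3 the mean share of Chtop was 0.183%, still below every Control library. Results that turn on this library are given with and without it.

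**Figure D2:**
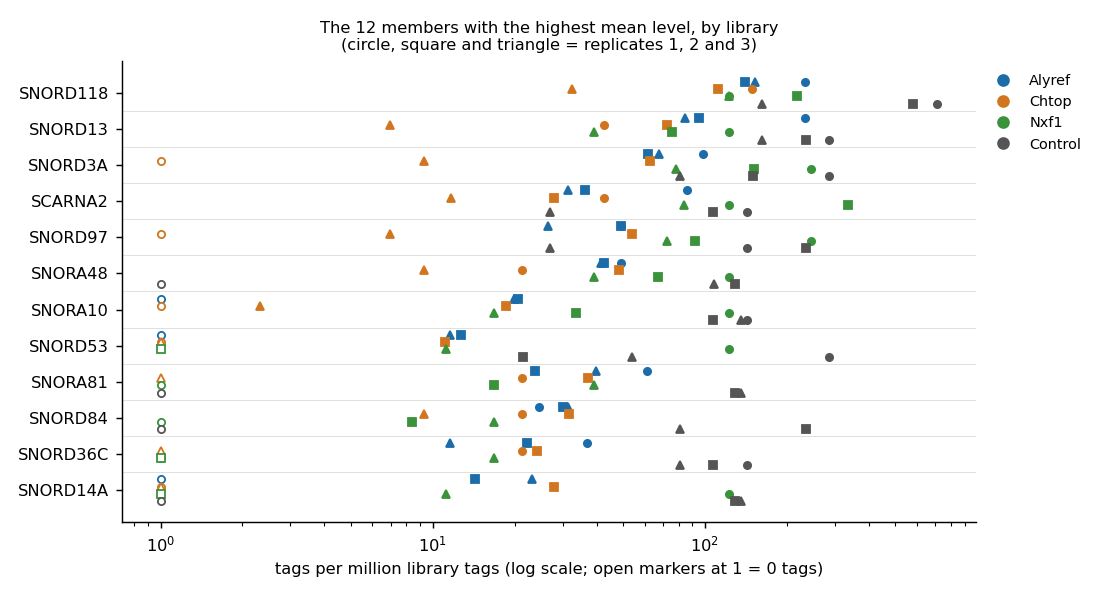
CPM (x axis, log scale, with 0 tags drawn as open markers at 1) for the 12 members with the highest mean over the groups, with 1 marker per library. A Control point is the rightmost for each member except SCARNA2 (Nxf1 2) and SNORD97 (Nxf1 1). In Control 1, 1 tag is 143 CPM.

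The independently transcribed members were among the most tagged. SNORD118 (U8), which acts in processing of the large subunit ribosomal RNA, spans chr17:8076772-8076905 on the minus strand and overlaps an untranslated exon of TMEM107. It had 234, 141 and 152 CPM in Alyref 1, 2 and 3, 149, 111 and 32.6 in Chtop, and 123, 218 and 123 in Nxf1. In the Control it had 713, 579 and 162 CPM. Every factor library lay below Control 1 and Control 2, but Control 3 was within the range of the factors. edgeR's quasi-likelihood test over all genes gave log2 fold changes against Control of -1.50 ± 0.44 in the Alyref comparison (SE, adjusted p = 0.0908), -2.42 ± 0.48 in that of Chtop (adjusted p = 0.00147) and -1.20 ± 0.49 in that of Nxf1 (adjusted p = 0.589). Without Control 2 the Chtop difference was -1.66 (edgeR adjusted p = 0.137). Against Nxf1, Chtop fell by 1.22 on the log2 scale (edgeR adjusted p = 0.0404), a call that was lost without Chtop 3 (adjusted p = 0.349), Nxf1 2 (0.258), Nxf1 3 (0.114), Alyref 2 (0.0902), Alyref 3 (0.0865) or Control 1 (0.0542). That call was also lost with DESeq2 (adjusted p = 0.130) and in edgeR without the filter on low counts (adjusted p = 0.425). Reads of the TMEM107 exon on the same strand cannot be told apart from U8.

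SNORD13, which guides acetylation of the small subunit ribosomal RNA, had 234, 95.0 and 84.5 CPM in Alyref, 42.5, 72.4 and 6.98 in Chtop, 123, 75.5 and 39.0 in Nxf1 and 285, 236 and 162 in Control 1, 2 and 3. All Chtop and Nxf1 libraries lay below all Control libraries. Of the 30-base windows of SNORD13, 60% occurred once in the genome, so its level is in part uncertain. The edgeR log2 fold change of Chtop against Control was -2.41 ± 0.66 (SE, adjusted p = 0.0137), and Alyref exceeded Chtop by 1.32 ± 0.46 (adjusted p = 0.0422). Without Chtop 3 the latter difference was 0.57 (edgeR adjusted p = 0.520) and the former -1.64 (edgeR adjusted p = 0.0684). The difference from Control also missed the threshold without Control 2 (edgeR adjusted p = 0.146) or Control 3 (0.0849), and the difference from Alyref without any 1 of Alyref 1, 2 and 3 and Nxf1 2 and 3 (edgeR adjusted p from 0.0511 to 0.0872). With DESeq2 the adjusted p was 0.0619 for Chtop against Control and 0.271 for Alyref against Chtop. Without the low-count filter the edgeR adjusted p was 0.0840 and 0.108, and with each base counted once the second was 0.0589.

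U3, the snoRNA of the small subunit processome, has 4 annotated genes that are near copies of one another. None of the 30-base windows of SNORD3A occurred once in the genome, and 5.43% of those of SNORD3C did, so that the division of uniquely mapped reads among copies is uncertain. SNORD3A had 98.4, 61.7 and 68.0 CPM in Alyref, 0, 63.1 and 9.31 in Chtop, 246, 151 and 78.1 in Nxf1, and 285, 150 and 81.1 in Control. Nxf1 and Control values covered the same range. Against Nxf1, Chtop fell by 1.94 on the log2 scale (edgeR adjusted p = 0.00940, but 0.105 without Chtop 3, 0.103 without Nxf1 2 and 0.0601 without the low-count filter). Summed over the 4 genes, the levels reached 123 ± 37.2 CPM (SD, n = 3) in Alyref, 43.3 ± 46.7 in Chtop, 200.2 ± 51.1 in Nxf1 and 259 ± 57.1 in Control.

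SCARNA2, an independently transcribed scaRNA, was the member in which Nxf1 differed most from the other factors. It had 86.1, 36.4 and 31.5 CPM in Alyref, 42.5, 27.8 and 11.6 in Chtop, 123, 336 and 83.6 in Nxf1 and 143, 107 and 27.0 in Control. The 40 tags of Nxf1 2 made it the highest of all libraries, and Nxf1 3 with 15 tags lay below Alyref 1. The log2 difference from Nxf1 was -2.52 for Alyref (SE 0.51, edgeR adjusted p = 0.00445) and -3.29 for Chtop (SE 0.56, edgeR adjusted p = 0.000142). Against the Control, Nxf1 was higher by 1.41 ± 0.74 (SE), which did not pass the test (edgeR adjusted p = 0.647). SCARNA2 passed the filter on low counts through Nxf1 2, Control 2, and Nxf1 1 and Control 1 with 1 tag each. No Alyref or Chtop library reached that level, so the differences from Nxf1 are a description of a gene selected in other groups. Without Nxf1 2 the gene no longer passed the filter and was not tested. The Alyref difference missed the threshold without Alyref 2 (edgeR adjusted p = 0.0932) or Alyref 3 (0.0675).

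Of the members hosted in introns, 5 passed the filter. SNORD97, in EIF4G2, had 49.2, 49.1 and 26.5 CPM in Alyref, 0, 53.8 and 6.98 in Chtop, 246, 92.3 and 72.5 in Nxf1 and 143, 236 and 27.0 in Control. The log2 difference of Chtop was -2.32 from Control (SE 0.79, edgeR adjusted p = 0.0433) and -1.83 from Nxf1 (SE 0.67, adjusted p = 0.0415), and without Chtop 3 the edgeR adjusted p was 0.182 and 0.266. Control 2 held 11 of its 13 Control tags, and without that library the difference from Control was -0.66 (edgeR adjusted p = 0.800). Leaving out any 1 of Alyref 2, Nxf1 2, Nxf1 3 and Control 3 also moved that adjusted p past the threshold (0.0510 to 0.0610), and 5 other libraries did so for the difference from Nxf1 (0.0547 to 0.168). Both calls were also lost without the low-count filter (edgeR adjusted p = 0.193 and 0.155) and with each base counted once (0.0506 and 0.0594). SNORA10, in the ribosomal protein gene RPS2, had 0, 20.6 and 19.9 CPM in Alyref, 0, 18.6 and 2.33 in Chtop, 123, 33.6 and 16.7 in Nxf1 and 143, 107 and 135 in Control. All Control libraries lay above all Alyref and Chtop libraries and above Nxf1 2 and 3. The log2 difference of Chtop from Control was -3.63 (SE 1.07, edgeR adjusted p = 0.0213), and the edgeR adjusted p rose to 0.0888 without Chtop 3, 0.0609 without Control 2 and 0.109 without Control 3. The gene passed the filter on low counts through its 3 Control libraries and 1 tag in Nxf1 1, and no Alyref or Chtop library reached the level that the filter asks for. Without the filter the edgeR adjusted p was 0.0190. Its level is uncertain because 21.2% of its 30-base windows were unique.

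The remaining members that passed, SNORA48 (EIF4A1), SNORD36C (RPL7A) and SNORD14A (RPS13), passed no comparison. SNORD36C had 36.9, 22.2 and 11.6 CPM in Alyref, 21.3, 24.1 and 0 in Chtop, 0, 0 and 16.7 in Nxf1 and 143, 107 and 81.1 in Control, so that all factor libraries lay below all Control libraries. Its edgeR log2 fold changes were -2.48 ± 1.13 (SE) for Alyref, -2.94 ± 1.18 for Chtop and -3.15 ± 1.42 for Nxf1, with adjusted p from 0.0810 to 0.647. SNORA48 ranged from 41.4 to 49.2 CPM in Alyref, 9.31 to 48.3 in Chtop, 39.0 to 123 in Nxf1 and 0 to 129 in Control, and SNORD14A from 0 to 23.2, 0 to 27.8, 0 to 123 and 0 to 135.

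The other members among the 12 highest were not tested. SNORD84, in DDX39B, the gene of a TREX helicase, had 24.6 to 31.5 CPM in Alyref, 9.31 to 31.5 in Chtop, 0 to 16.7 in Nxf1 and 0, 236 and 81.1 in Control. SNORA81, in EIF4A2, had 23.7 to 61.5 CPM in Alyref, 0 to 37.1 in Chtop, 0 to 39.0 in Nxf1 and 0, 129 and 135 in Control. SNORD53, in WDR43, had at most 12.7 CPM in Alyref and 11.1 in Chtop, and its 123 CPM in Nxf1 1 and 285 CPM in Control 1 rest on 1 and 2 tags.

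In all, 9 of the 1363 members passed edgeR's filter on low counts, and a member that passed only through the groups where it is high had to differ between groups. No Chtop library reached the level of the filter in 8 of the 9, the exception being SNORD118, so the counts of members lower in Chtop are a description of members selected in other groups. No Alyref library reached it in 6 of the 9, SCARNA2 among them, so the lower Alyref level of SCARNA2 is a description as well. Lower in Chtop than in Control were 4 members (SNORD118, SNORD13, SNORD97 and SNORA10) and higher were 0, where 5.85% of all 3246 genes tested were lower and 9.21% higher. Leaving out 1 library moved that count between 0 of 11 members tested (without Control 2) and 10 of 15 (without Alyref 1). Over all genes, 47 of 4829 and 222 of 4943 were lower in those fits, in the same order. The count was 1 without Chtop 3 or without Control 3. No member passed in Alyref against Control (0.123% of all genes higher, 0.154% lower) or in Nxf1 against Control (0% higher, 0.0308% lower). At an unadjusted edgeR p under 0.05, 5 and 4 of the 9 members were lower in these comparisons. No share of all genes was taken at that looser threshold, so those counts cannot be set against the shares above. DESeq2 called 1 and 0 members lower, the former of 21 tested beside 11 of 7131 genes. Between factors, 1 member was higher in Alyref than in Chtop (6.13% of all genes higher, 9.92% lower), 1 was lower in Alyref than in Nxf1 (2.83% higher, 1.91% lower) and 4 were lower in Chtop than in Nxf1 (14.9% higher, 11.2% lower). With 9 members tested, no share of members was read against these shares of all genes.

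The other scaRNAs were sparse. Of the 47 SCARNA members 16 had a tag and 8 had 10 or more. SCARNA7, in KPNA4, which combines 54 tags over 330 nt, had 36.9, 33.2 and 9.95 CPM in Alyref, 0, 20.4 and 0 in Chtop and 0, 75.5 and 22.3 in Nxf1, with no tag in any Control library. The pooled Control of 90623 tags allows up to 33.1 CPM. Nxf1, at 42.4 CPM pooled, was 1.28-fold this limit, and Alyref, at 22.8 CPM, lay below it. The counting error of the 13 Nxf1 tags and the spread between libraries are not in that ratio. Leaving out single libraries, here and for the U3 copies a choice made after seeing the data, put Nxf1 below the limit in 3 cases. The Nxf1 value was 21.3 CPM without Nxf1 2, and the limit rose to 68.2 CPM without Control 2 and 55.9 CPM without Control 3, both above the Nxf1 value. Without Nxf1 3 the Nxf1 value was 70.7 CPM (2.14-fold the limit of 33.1 CPM), and Alyref without Alyref 3 was at 33.7 CPM, just past that limit. SCARNA5 (ATG16L1, 15 tags) likewise had none in the Control. SCARNA14 (TIPIN, 29 tags), SCARNA12 (PHB2, 23), SCARNA1 (PPP1R8, 22), SCARNA11 (CHD4, 19) and SCARNA4 (KHDC4, 12) had tags in the Control as well, with 1 to 4 tags there.

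Members differed widely by the kind of host gene. Of the 62 SNORD and SNORA members in ribosomal protein genes 59 (95.2%) had a tag, and of the 15 in genes of translation initiation or elongation factors 14 (93.3%). In other protein-coding genes the count was 114 of 214 (53.3%), in long non-coding RNA genes 11 of 100 and among members with no host 27 of 303 (8.91%). The 96 snoRNA genes inside GAS5 or SNHG genes are left out here, so the value for long non-coding RNA genes does not describe all such hosts. Members in ribosomal protein genes summed to 530 ± 173 CPM (SD, n = 3) in Alyref, 429 ± 385 in Chtop, 556 ± 177 in Nxf1 and 1765 ± 668 in Control. The lowest Control library, at 1217 CPM, lay above the highest factor library, at 817 CPM. In translation factor genes the sums were 223 ± 12.8, 128 ± 145, 324 ± 152 and 497 ± 165 CPM in the same order, and here Nxf1 (195 to 492 CPM) overlapped the Control (379 to 686). These sums share libraries and were not tested. The SNORD115 and SNORD116 clusters, imprinted snoRNA arrays, had 1 and 3 members outside SNHG14 and no tag.

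The question whether tags lay on the small RNA or ran through the host intron was asked with a ratio of tag densities. The body was set against host sequence 50 to 500 nt away, without exons of canonical transcripts, for 204 SNORD and 182 SNORA members. Flanks could reach into neighbouring introns of the host. Tags piled up on the small RNA in every library. For SNORD the log2 ratio was 3.03, 4.45 and 4.23 in Alyref, 3.78, 5.02 and 2.03 in Chtop, 4.00, 3.91 and 3.93 in Nxf1 and 5.64, 5.15 and 5.67 in Control. All factor libraries lay below all Control libraries, and the means differed from the Control by -1.59 (Alyref), -1.88 (Chtop) and -1.54 (Nxf1). The Control ratios rest on few flank tags, with 2, 38 and 9 in Control 1, 2 and 3 beside 13, 148 and 52 body tags. Each of these had p = 0.1 in the exact permutation test, the lowest it can reach (adjusted over 6 comparisons 0.2). Without Chtop 3 the Chtop difference was -1.09, and with flanks of 50 to 200 nt that of Nxf1 was -2.43.

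For SNORA the log2 ratio was 3.83, 3.79 and 3.92 in Alyref, 5.65, 4.72 and 1.72 in Chtop, 3.62, 3.42 and 3.16 in Nxf1 and 3.22, 6.40 and 6.95 in Control. Control 1, with 7 body and 4 flank tags, lay within the factor range, and the differences did not hold against the spread (exact permutation p from 0.3 to 0.5, adjusted 0.45 to 0.5). The high values of Control 2 and Control 3 rest on 7 and 2 flank tags. The low values of Chtop 3 came with few body tags. Its SNORD body tags summed to 83.8 CPM against 1063 CPM in Chtop 2, but its flank tags to 191 CPM against 302 CPM. Copies with other names behaved differently from the named classes: over 208 of them in introns, pooled body density was 3.39-fold the flank density in Alyref, 1.62-fold in Chtop, 1.99-fold in Nxf1 and 4.44-fold in Control (4 body tags), where SNORD gave 19.5-fold, 22.4-fold, 15.3-fold and 40.1-fold.

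**Figure D3:**
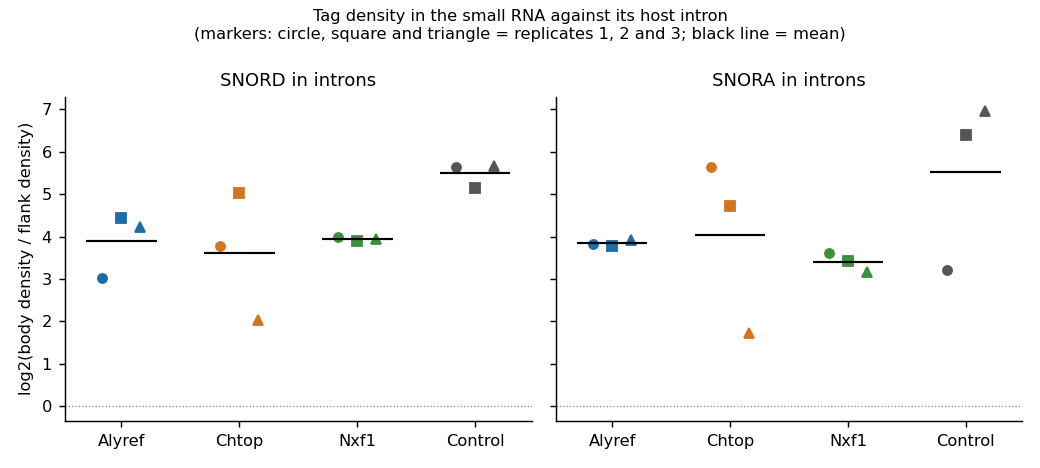
Log2 ratio of tag density in the body of intronic SNORD (left) and SNORA (right) members to the density 50 to 500 nt away in the host (y axis), with 1 marker per library and the group mean as a line. All points lie above 0, SNORD factor points lie below the Control points at 5.15 to 5.67, and Chtop 3 is the lowest in both panels.

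Copies called U3 had tags in factor libraries and none in the Control. Of the 81 copies 26 had a tag. They held 6, 13 and 32 tags in Alyref 1, 2 and 3, 1, 1 and 4 in Chtop, 1, 10 and 17 in Nxf1 and 0 in every Control library. Pooled over libraries this was 38.7 CPM in Alyref, 5.91 in Chtop and 91.3 in Nxf1. With the limit taken over the group, 0 Control tags allow 33.1 CPM, so that Nxf1 was 2.76-fold and Alyref 1.17-fold this limit. The counting error of the factor tags and the spread between libraries are not in these ratios. Without Control 2 the limit was 68.2 CPM and Nxf1 1.34-fold that limit, and without Control 3 they were 55.9 CPM and 1.63-fold. The Alyref value was under both of these limits, and without Alyref 3, which held 32 of the 51 Alyref tags, it fell to 26.6 CPM, under 33.1. The Nxf1 tags lay in 17 copies and the Alyref tags in 19. The most tagged copy, in TEX14, held 23 tags. This contrasts with the named SNORD3 genes, in which the Control had the highest mean. The other members as a class were higher in Nxf1 (0.0145% to 0.0246%) than in every Alyref and Chtop library (p = 0.0238 by the exact permutation test, adjusted over 15 comparisons 0.179) and lower in Chtop (0.00213% to 0.00445%) than in every Alyref and Nxf1 library (p = 0.0119, the smallest possible in this exact permutation test, adjusted 0.179). A single U8 copy at chr11:123172098-123172231 on the plus strand, outside any host, held 85 of the class's 231 tags, 10 of them in the Control.

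Along the RNA, tags marked the mature 5′ end. The base just before the first annotated base held 232 tags over the 12 libraries, against 92 at the base before it and 92 at the first base. The tag is placed at the base before the read, so a cDNA that ran to the end of a mature RNA is counted at this base. The share within 2 nt of the first base was 8.32% ± 2.64 (SD, n = 3) in Alyref, 7.04% ± 2.21 in Chtop, 7.92% ± 2.75 in Nxf1 and 10.1% ± 0.650 in the Control. Chtop, at 4.76%, 9.17% and 7.20%, lay below the Control libraries, at 9.38%, 10.3% and 10.6%, without overlap (exact permutation p = 0.1, adjusted over 3 comparisons 0.3), whereas Alyref and Nxf1 overlapped it. The lowest Control value, that of Control 1, rests on 3 of 32 tags, and that of Chtop 1 on 3 of 63. The lack of overlap thus depends on few tags.

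The 3′ ends were nearly empty. The last 15 bases held 42 tags and the 15 before them 329, and 77 tags lay in the 20 nt beyond the last base. Reads of 15 nt or less were discarded by the authors, which limits what can be recorded in the last bases of a mature RNA. Tags were already fewer before those bases: in Alyref, 45 lay at -40 nt and 10 at -24 nt from the last base. The cause of the empty 3′ ends was not tested. The 0 Control tags in the last 15 bases, against 24 in Alyref, 8 in Chtop and 10 in Nxf1, came with 551 Control tags in all.

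**Figure D4:**
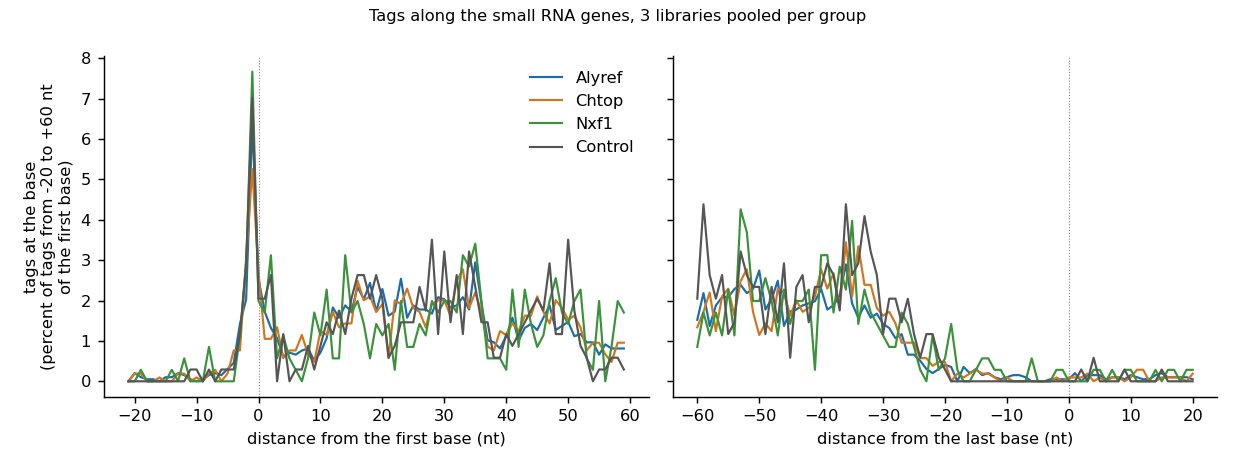
Tags at each base (y axis, percent of the group's tags from 20 nt before to 60 nt after the first base) by distance from the first base (left) and the last base (right) of all members, with the 3 libraries of each group pooled. Every group peaks at the base before the first base and falls to near 0 in the last 15 bases.

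Box C/D and box H/ACA RNAs differed in the scaled position of their tags. Each gene was divided into 10 bins of equal length. The median length was 73 nt over all SNORD members and 132 nt over all SNORA members. The nearly empty 3′ ends thus take up a larger part of a SNORD gene. The part of length in the differences between the classes was not tested. In SNORD members bins 1 to 5 held 72.6% (Alyref), 70.3% (Chtop), 66.8% (Nxf1) and 70.8% (Control) of the tags, and bins 9 and 10 at most 3.11%. In SNORA members bin 8 held the most tags in each group, 18.2%, 21.2%, 24.2% and 27.6% in the same order. Alyref, Chtop and Control had a lower peak at bin 4 and a dip at bin 5, which Nxf1 did not show. Shares of bins 6 to 10 of single libraries ranged from 15.4% to 42.7% in SNORD and from 14.3% to 69.0% in SNORA, and in 11 of 12 libraries the SNORA share was the higher, the exception being Control 1 with 7 SNORA tags.

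**Figure D5:**
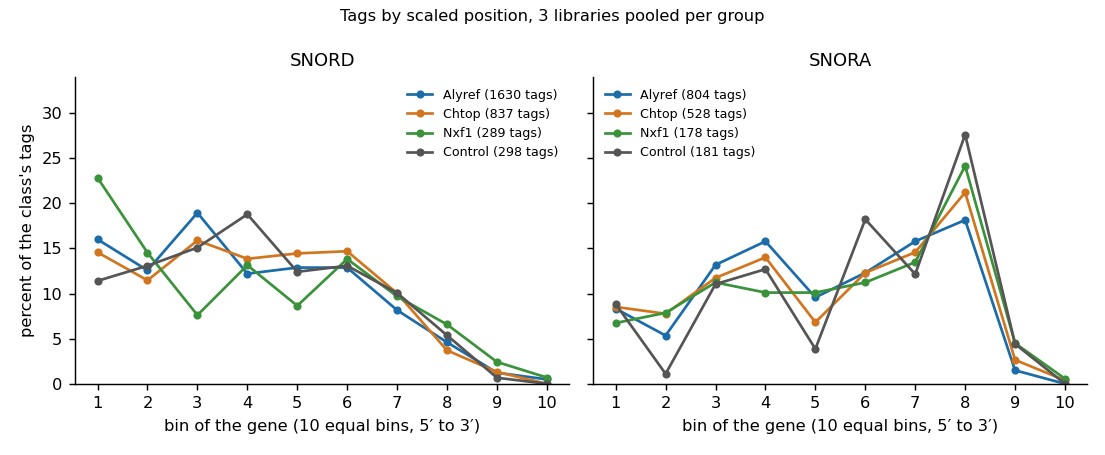
Percent of a group's SNORD (left) or SNORA (right) tags in each of 10 equal bins of the gene (x axis, 5′ to 3′), 3 libraries pooled per group. SNORD tags fall off after bin 6, and SNORA tags peak in bin 8 in all 4 groups.

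Single members had their tags in narrow stretches. In SNORD97 84.4% of 122 tags lay in bases 62 to 101, the uridine-rich stretch visible in its sequence, and by group this window held 88.2% (Alyref), 84.4% (Chtop), 76.9% (Nxf1) and 84.6% (Control). In SNORD3A 78.5% of tags lay in bases 34 to 73, with 77.3%, 78.9%, 85.3% and 66.7% by group. In SNORA48 bases 66 to 105 held 62.8%, with 60.7%, 64.5%, 62.5% and 70.0%. In SNORD118 tags were spread more widely, 43.2% in bases 44 to 83, with 36.0% of Alyref and 57.9% of Control tags there. Windows were chosen on the same tags and are a description.

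Tags favoured uridine. Leaving out the first 3 and the last 20 bases of each member, 52.4% to 57.5% of tags in the Alyref libraries, 52.4% to 55.0% in Chtop, 40.0% to 52.0% in Nxf1 and 31.0% to 53.1% in Control lay on a U, where 29.9% of the 32039 bases of members with a tag are U. The lowest values were in Nxf1 1 with 20 tags and Control 1 with 29. Dense members were near the point where each base holds 1 tag: SNORD118 in Alyref 2 had 89 tags at 80 of its 134 bases, and in Control 2 it had 27 tags at 24 bases. Over all libraries 93.7% to 98.9% of tags were alone at their base. Whether removal of duplicates held down counts in the densest members of the deepest libraries was not tested.

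Few of the protein genes of these particles could be tested, as over all annotated genes, of which 3246 of 64449 passed the filter. Of 31 genes of box C/D and box H/ACA proteins, assembly factors and the U3 particle, 3 passed the filter (NOP56 and NOP58, core box C/D proteins, and NOLC1, a nucleolar chaperone of snoRNPs). Against Control none was higher or lower for any factor by edgeR's test, also at an unadjusted p under 0.05, and NOP56 rose in Alyref against Chtop by 0.93 ± 0.30 (SE, edgeR adjusted p = 0.0311). The median log2 fold changes of these 3 genes against Control were 0.48 (Alyref), -0.12 (Chtop) and -0.35 (Nxf1), beside 0.16, 0.16 and 0.12 over all genes tested. NOP56 and NOP58 also host snoRNAs, whose tags were counted apart from them.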

How the data were processed

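iCLIP tags were measured in 12 libraries made of 32 lane runs. The deposited values are counts: per base and strand, the authors gave the number of deduplicated cDNA tags, after phiX removal with Bowtie 1.1.2, barcode handling and deduplication with UMI-tools 0.5.3 and unique alignment to hg19 with STAR 2.4.2a. Per-sample columns left unused numbered 0. Pooled files were not used. Members and gene lists were chosen with earlier results of these data known.

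Here tags were assigned on their strand to GENCODE v44 genes on GRCh37, each member taking its tags from its host. Flanks left out exons of canonical transcripts, since other isoforms include most of these introns, and 20 nt around other small RNAs, and 0.5 was added to both sums. Shares and ratios were compared with exact permutation tests of the absolute difference in means (Benjamini-Hochberg within families). Tags per gene were tested with edgeR 4.0.16 in R 4.3.3 (TMM, filterByExpr, 12 libraries in 1 fit), checked on simulated data, with DESeq2 1.42.0 as an alternative. Named members were the 12 highest by mean CPM, up to 6 past the threshold of 0.05 in each comparison, those with their own promoters, and SCARNA members with 10 or more tags. Other members named here (the TEX14 and chromosome 11 copies) were chosen after their values were seen.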

Additional observations from a re-analysis of the deposited data

Results flagged for a closer look

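Differences between the factors' effects over the shared Control were tested by edgeR as the contrast between the factors themselves, and 6 passed. SCARNA2 was lower in Alyref than in Nxf1 (log2 difference -2.52, adjusted p = 0.00445) and lower in Chtop than in Nxf1 (-3.29, adjusted p = 0.000142). SNORD3A (-1.94), SNORD97 (-1.83) and SNORD118 (-1.22) were lower in Chtop than in Nxf1, and SNORD13 was higher in Alyref than in Chtop (1.32). The 4 latter values come with the low snoRNA level of Chtop 3, and without that library the edgeR adjusted p was 0.105, 0.266, 0.349 and 0.520. The part of Chtop 3 in them beyond these values was not tested. The SCARNA2 values come with the 40 tags of Nxf1 2, without which SCARNA2 did not pass the filter. No Alyref or Chtop library reached the level of the filter for SCARNA2, so the SCARNA2 values describe a gene selected in other groups. No Chtop library reached it for SNORD3A, SNORD97 or SNORD13 either. Their lower Chtop values are likewise a description of genes selected in other groups.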

How the results depend on the processing

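All shares of all members, SNORD and SNORA, the SNORD body-to-flank ratios and the 5′ end shares of each factor against Control kept their direction under all 9 to 12 alternatives. Depth limits single members: 1062 members had no tag and 9 passed the filter for edgeR.

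Counts of called members moved with the tool and filter. Against Control, DESeq2 called 1 of 21 members tested lower in Alyref, beside 11 of 7131 genes. It called 8 of 15 lower in Chtop, beside 193 of 5997 genes. Of the 15, 0 were higher in Alyref than in Chtop, beside 48 of 5997 genes. Scaling by library size alone gave 2 of 9 higher in Alyref than in Chtop (322 of 3246 genes). No filter gave 0 of 301 (99 of 29238 genes), and counting each base once gave 0 of 8 (192 of 3193 genes). Without the filter 1 of 301 members was lower in Chtop than in Nxf1 (248 of 29238 genes). Leaving out 1 library moved the counts from 0 to 1 (lower in Alyref than in Control, and than in Nxf1), 0 to 10 (Chtop lower than Control), 0 to 5 (Chtop lower than Nxf1) and 0 to 3 (Alyref higher than Chtop). The 10 were of 15 members tested without Alyref 1 (222 of 4943 genes), and the 3 of 9 without Chtop 2 (167 of 2979 genes). With the replicate number as a block (replicate block), 6 members were lower in Chtop than in Control. The members and genes tested changed with the setting, and none of these counts was read against the share of all genes. Residuals of same-numbered libraries correlated from -0.193 to 0.267 (median 0.0542) and those of differently numbered libraries from -0.289 to 0.241 (median -0.0176). By the run labels, the replicate 2 libraries of all groups shared HiSeq runs that no other library had. Replicates 1 and 3 shared the other HiSeq runs. Replicate number is thus tied to sequencing run, and these correlations cannot show that the libraries were unpaired.

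Differences between factors in shares, ratios and end shares, none of which passed the adjusted permutation tests, reversed in places. By alternative, Alyref against the other factors became -0.000165 percentage points for other names (each base once) and -0.00168 for SNORA (percent of tags in genes), and Alyref against Control 0.000111 for other names (2 nt added). With flanks of 50 to 200 nt the SNORD ratio of Nxf1 became -0.23, and with the base before the first base alone the end shares of Chtop and Nxf1 became 0.269 and -0.428.

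Leaving out 1 library gave, for shares of Alyref against the other factors, -0.0105 to 0.0369 (all), -0.00831 to 0.00790 (SNORA), -0.00626 to 0.00509 (SCARNA) and -0.00139 to 0.00310 (other). It gave -0.0299 to 0.0100 for SNORA in Chtop against the other factors, -0.00737 to 0.0154 for SCARNA in Nxf1 against Control and -0.00635 to 0.00438 for other names in Alyref against Control. Against the other factors SNORD ratios ran from -0.22 to 0.56 (Alyref), -1.02 to 0.47 (Chtop) and -0.16 to 0.44 (Nxf1), and SNORA ratios from -0.27 to 0.52 (Alyref) and -0.40 to 1.56 (Chtop). End shares ran from -0.234 to 2.31 (Alyref), -2.14 to 0.0641 (Chtop) and -0.694 to 1.82 (Nxf1). The causes were not tested.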
